A study of Mus musculus with 8 samples.

Results

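The control splenocytes of Δ122p53 mice were compared here with the control splenocytes of wild-type (WT) and p53-null mice. The comparison used 4 of the 8 arrays of a study of p53 status and DNA damage: 1 Δ122p53 control array, 1 WT control array and 2 p53-null control arrays. Members were all probes with a detection p under 0.01 on at least 1 of these 4 arrays, which held for 9653 of 24613 probes. They covered 7071 genes with a single symbol, and 1288 of the probes carried no single symbol. Each array held biotin-labelled cRNA from total RNA of splenocytes, the mixed cells of the spleen, measured on an Illumina beadchip. The cells were pooled from 4 C57BL/6 mice per genotype, 5 to 6 weeks old, and cultured. The other 4 arrays held Δ122p53, WT and p53-null splenocytes treated for 5 hours with 1 µg per mL of amsacrine, which poisons topoisomerase II, and p53-null splenocytes given 4 Gy of gamma irradiation.

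The labels name no transgene or Cre line, and do not state the zygosity of the Δ122p53 mice. The protocol names an ethanol carrier (30%) for the amsacrine experiment and untreated cells for the irradiation experiment. Which of these a given control array received is not stated, so a difference in carrier between control arrays cannot be told apart from a difference between them in anything else. With a single Δ122p53 pool, genotype also cannot be told apart from that pool of mice or that culture. Separate pools are not stated for the p53-null pair, and the p-values then reflect only differences between arrays, possibly technical ones. Trp53 was not among the named probes, so the genotype labels were not checked by the level of the targeted gene.

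p53 is a transcription factor that restrains cell division and promotes cell death after DNA damage. Δ122p53 is a truncated mouse p53 made to model Δ133p53α, a human isoform that starts from an internal promoter and lacks the N-terminal transactivation domains. The mouse spleen filters blood, holds B cells, T cells and natural killer cells, and unlike the adult human spleen goes on making red blood cells in its red pulp. Red pulp macrophages engulf old red cells and return their iron to the circulation. Type I and type II interferons, released on infection or on sensing of nucleic acids, switch on a shared set of antiviral genes.

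Between 7919 and 8633 of the probes were detected on each control array: 7919 on Δ122p53, 8374 on WT and 8065 and 8633 on the p53-null arrays. Median raw intensity lay between 69.7 and 81.5 over the 8 arrays. Of the members, 6815 were detected on all 4 control arrays, 299 on the Δ122p53 array alone, and 508 on the 3 other arrays but not on Δ122p53. At the detection limit, 141 probes had a smallest detection p of 0.00973 and were kept, and 157 had 0.0109 and were left out. Spleen markers were present on all 4 arrays, with Cd79b of B cells at 13.79 on Δ122p53, 14.06 on WT and 14.10 and 13.82 on p53-null. Cd3e of T cells stood at 11.10 on Δ122p53, 11.87 on WT and 12.13 and 12.10 on p53-null. All levels are log2 of background-corrected, quantile-normalized signal, and all differences are differences of such values.

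The Δ122p53 control stood further from the other controls than these did from one another. Across the member probes its values correlated with those of p53-null control 1 at 0.898, of p53-null control 2 at 0.877 and of WT at 0.848. The p53-null pair correlated at 0.958, and p53-null controls 1 and 2 with WT at 0.926 and 0.972. These are correlations across probes on arrays scaled together, given as a description. At least 2-fold differences between Δ122p53 and WT were seen for 2972 probes, 1500 higher (15.5%) and 1472 lower (15.2%) on Δ122p53, together 30.8% of members. Against the p53-null mean there were 1768 such probes, 838 higher (8.68%) and 930 lower (9.63%), together 18.3%. By the same measure 721 probes differed between the p53-null mean and WT (7.47%), and 751 between p53-null control 2 and control 1 (7.78%). The median absolute difference was 0.63 for Δ122p53 minus WT, 0.43 for Δ122p53 minus p53-null and 0.32 for p53-null 2 minus p53-null 1.

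**Figure D1:**
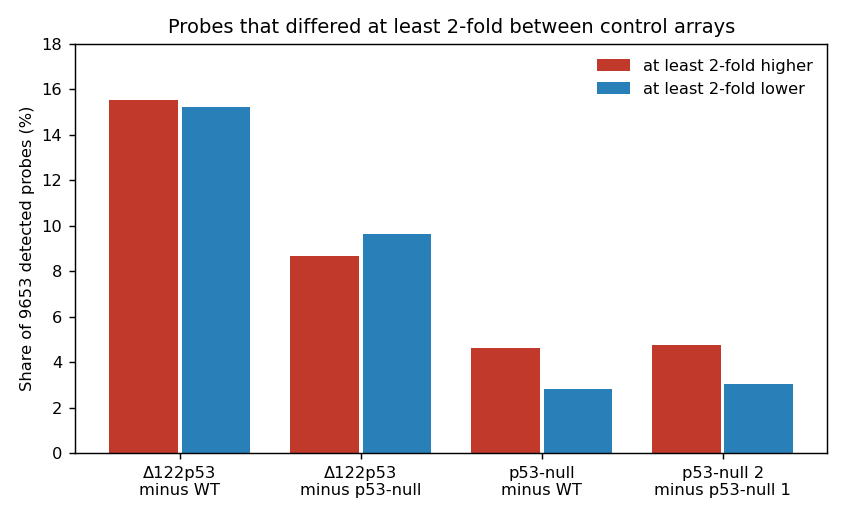
Share of the 9653 detected probes (vertical axis, percent) that were at least 2-fold higher (red) or lower (blue) in each comparison between control arrays. Both Δ122p53 comparisons exceed the p53-null to WT comparison and the comparison within the p53-null pair.

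In limma's fit with a mean for each genotype, 295 probes passed an adjusted p of 0.05 (Benjamini-Hochberg over all 9653) between Δ122p53 and WT, 168 higher (1.74%) and 127 lower (1.32%) on Δ122p53, together 3.06%. Between Δ122p53 and p53-null 371 passed, 229 higher (2.37%) and 142 lower (1.47%), together 3.84%. With WT and p53-null pooled as 1 group of 3 arrays, 382 passed, 225 higher (2.33%) and 157 lower (1.63%), together 3.96%. That pooled count was 2123 without p53-null control 1 and 240 without p53-null control 2. Between p53-null and WT none passed in the same limma fit (0.0%), with 657 probes at an unadjusted p under 0.05 and a smallest adjusted p of 0.684. Only the p53-null pair left a residual degree of freedom (1), so the lone Δ122p53 and WT arrays were assumed to vary as that pair did. Values of undetected probes entered the fit as measured. Of the members, 793 were detected on Δ122p53 and not on WT, and 1248 on WT and not on Δ122p53. Against p53-null the counts were 357 and 1403. Such probes were among the calls in both comparisons, and their p-values rest in part on signal below detection. The count against WT was 0 with cyclic loess scaling, with the authors' normalized values or without the detection filter, where the smallest adjusted p were 0.0648, 0.0971 and 0.168. Against p53-null it was 97 with cyclic loess (74 higher and 23 lower), and 0 with the authors' values or without the filter. All calls below are those of the quantile-scaled fit, and of 127 calls on single named genes 87 were lost with cyclic loess and 127 with the authors' values.

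The 15 genes that stood furthest above all 3 other controls were led by genes of maturing red cells. Tmcc2, a transmembrane coiled-coil gene active late in red cell formation, reached 11.19 on the Δ122p53 array, against 5.64 on WT and 5.56 and 5.45 on p53-null. It was not detected on the other 3 arrays, so it was at least 41.7-fold higher than in WT (adjusted p = 0.0160) and at least 41.4-fold higher than in p53-null (adjusted p = 0.00500). Such a bound sets the Δ122p53 level against the lowest signal that counted as detected on the dim array. Pdzk1ip1, a small membrane-associated protein, was at 10.68 on Δ122p53, against 5.23 on WT and 4.66 and 4.57 on p53-null. Fhdc1, of the formin family, was at 10.72 on Δ122p53, against 5.76 on WT and 5.17 and 5.60 on p53-null. Both rose, by at least 29.2-fold and at least 30.1-fold over WT. Cdr2, a cytoplasmic coiled-coil protein, was detected on all 4 arrays, at 12.19 on Δ122p53, against 7.37 on WT and 7.20 and 7.08 on p53-null. Its difference was 4.82 ± 0.41 from WT and 5.05 ± 0.35 from p53-null (± SE, adjusted p = 0.0160 and 0.00500). Ube2l6, the conjugating enzyme for the interferon-induced modifier ISG15, reached 11.22 on Δ122p53, against 6.03 on WT and 6.74 and 5.89 on p53-null. Tfdp2, a dimerization partner of E2F factors, was at 10.15 on Δ122p53, against 5.33 on WT and 5.86 and 5.35 on p53-null. The others of the 15 were Trim10, Hemgn, Car2, Tspo2, Tmod1, Rhag, Tspan33 and Kel, which belong to red cells or their precursors, and Trib3, a stress-induced pseudokinase. These genes were ranked by their gap to the nearest of the 3 other arrays, measured values of undetected probes included.

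The 15 genes furthest below all 3 other controls included macrophage genes and immediate early factors. Tgfbi, a secreted matrix protein of macrophages among other cells, was not detected on Δ122p53 (5.51), against 9.82 on WT and 9.81 and 9.88 on p53-null. The 3 other arrays lay close together, and Tgfbi was at least 14.4-fold lower than in WT and at least 14.7-fold lower than in p53-null (adjusted p = 0.0160 and 0.00666). Fcna, the ficolin of macrophages, read 5.31 on Δ122p53, against 10.67 on WT and 9.18 and 9.45 on p53-null. S100a4, a calcium-binding protein of motile cells, was at 5.28 on Δ122p53, against 9.15 on WT and 8.85 and 9.06 on p53-null. Neither was detected on Δ122p53, and both fell in both comparisons. Fcgr4, an activating receptor for IgG on myeloid cells, was detected throughout, at 7.20 on Δ122p53, against 11.15 on WT and 10.59 and 10.59 on p53-null. Psmb1, a subunit of the 20S proteasome core, was at 7.02 on Δ122p53, against 11.68 on WT and 10.51 and 11.47 on p53-null. Ccnd1, the G1 cyclin D1, was at 6.10 on Δ122p53, against 9.16 on WT and 9.45 and 9.38 on p53-null. Its 3 other detected probes differed from WT by -1.12, -0.43 and -3.12, so the probes of Ccnd1 disagreed in size though not in direction. The rest of the 15 were Fos, Fosb, C1qb, C1qc, Asb2, Srpk3, Pld4, Timp2 and Tnni2.

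**Figure D2:**
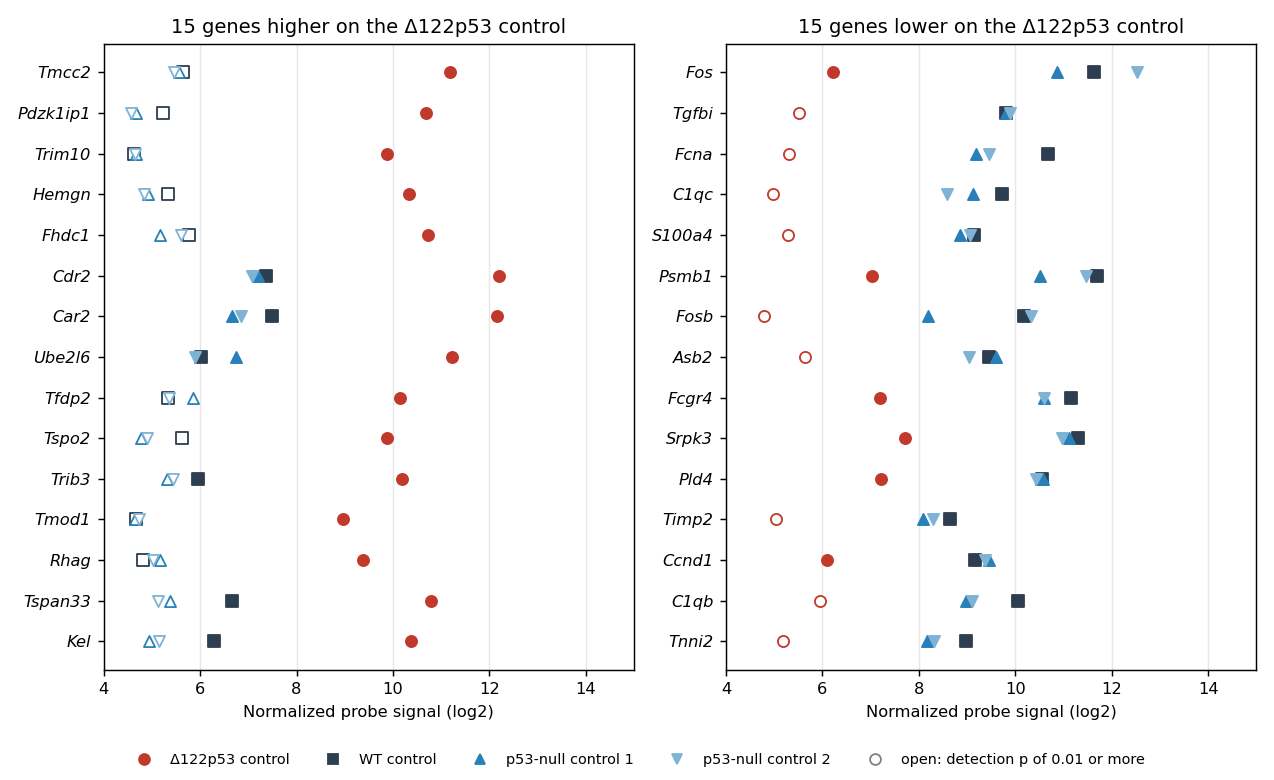
Normalized log2 signal (horizontal axis) of the 15 genes furthest above (left) and the 15 furthest below (right) the 3 other controls, 1 symbol per control array, with open symbols where the probe was not detected. The genes were chosen for the gap between the red Δ122p53 points and the 3 other arrays, and Tmcc2 and Fos head the panels.

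Genes of red cell formation were higher in Δ122p53. Of 66 genes in 5 erythroid lists 44 were measured. Against WT, 36 were at least 2-fold higher and 16 rose, where 13.2% of all genes were at least 2-fold higher and 1.46% rose. Against p53-null, 38 were at least 2-fold higher and 30 rose (8.08% and 2.33% of all genes). Their median difference was 1.96 from WT and 2.72 from p53-null, against -0.13 and -0.04 over all 7071 genes. With genes detected on one side only set at their bound, the medians were 1.96 and 2.50. In the pooled comparison 25 of the 44 rose (2.22% of all genes). Summed normalized signal over these genes was 151410 on Δ122p53, against 36736 on WT and 43929 and 26366 on p53-null. Of the 44, 43 were detected on Δ122p53, against 31, 25 and 27. Genes detected on Δ122p53 alone entered the lists through that array, so the filter sets part of this contrast. Each gene is given by its probe with the highest mean. Of 64 list genes with further detected probes, such a probe alone passed in 6 against WT and in 5 against p53-null, in the direction of the probe used, and in 17 and 11 genes a further probe had the opposite sign with no call. In RNA from mixed cells, more cells of a type and more RNA per cell of that type cannot be told apart.

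Membrane and blood group genes had the highest medians of the lists examined, 3.18 from WT and 4.27 from p53-null over 11 genes. Of these, 9 were at least 2-fold higher in each comparison (13.2% and 8.08% of all genes), and 1 was at least 2-fold lower than in WT. Slc4a1, the band 3 anion exchanger that anchors the red cell skeleton, was at 14.69 on Δ122p53, against 11.35 on WT and 9.39 and 9.28 on p53-null. It rose by 3.34 ± 0.41 over WT and 5.36 ± 0.35 over p53-null (± SE, adjusted p = 0.0226 and 0.00500). Kel, the Kell blood group metalloprotease, was at 10.37 on Δ122p53, against 6.30 on WT and 4.95 and 5.14 on p53-null, where it was not detected. Rhag, the Rh-associated glycoprotein, was at 9.37 on Δ122p53, against 4.81 on WT and 5.17 and 5.03 on p53-null. Aqp1, the water channel, was at 12.25 on Δ122p53, against 9.50 on WT and 6.79 and 7.72 on p53-null. Aqp1 rose over p53-null (4.99 ± 0.48, adjusted p = 0.00898) while its difference from WT, 2.75 ± 0.55, did not pass (adjusted p = 0.0592). A further Aqp1 probe passed against WT (3.99, adjusted p = 0.0171), and Ank1, the ankyrin of the red cell skeleton, rose in both comparisons only by its 2 further probes. Tspan33, Dmtn and Ermap also rose in both comparisons. Xk, carrier of the Kx antigen, stood the other way, at 5.73 on Δ122p53 (not detected), against 6.96 on WT and 5.83 and 6.20 on p53-null, and passed neither test.

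Heme synthesis and iron uptake genes had medians of 1.83 and 2.19 over 12 genes. Of these, 10 were at least 2-fold higher than in WT and 11 than in p53-null (13.2% and 8.08% of all genes). In each comparison 1 was lower. Fech, which inserts iron into the heme ring, was at 8.75 on Δ122p53, against 4.63 on WT and 4.98 and 4.65 on p53-null, detected by this probe on Δ122p53 alone and at least 7.69-fold above WT. Tfrc, the transferrin receptor, was at 12.29 on Δ122p53, against 9.52 on WT and 9.16 and 9.22 on p53-null, and rose in both comparisons (adjusted p = 0.0327 and 0.0135). Alas2, the erythroid enzyme of the first step of heme synthesis, was at 14.20 on Δ122p53, against 8.72 on WT and 10.26 and 7.55 on p53-null. Control 2 minus control 1 of the p53-null pair was -2.70 in this gene, and the Δ122p53 difference was 5.48 ± 1.16 from WT (adjusted p = 0.0661) and 5.29 ± 1.01 from p53-null (adjusted p = 0.0477). Alad, Urod, Ppox, Slc25a37 and Slc25a39 passed the test against p53-null and not the one against WT by the probe used, and the difference between the comparisons was not tested. Further probes of Ppox and Uros passed against WT (3.15 and 2.74, adjusted p = 0.0319 and 0.0439). Tmem14c, a mitochondrial porphyrin carrier, differed by -0.48 and -0.27 with no call, and by 0.59 from WT in a further probe.

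The globin genes were measured by 3 probes, and near-identical copies of these genes may share signal. Hbb-bt, an adult beta globin, was at 11.02 on Δ122p53, against 8.12 on WT and 7.82 and 7.90 on p53-null, and rose in both comparisons (adjusted p = 0.0319 and 0.0131). Hba-a1, adult alpha globin, was at 14.95 on Δ122p53, against 13.48 on WT and 14.64 and 13.03 on p53-null. Hba-a1 passed neither test (adjusted p = 0.283 and 0.434), control 2 minus control 1 of the p53-null pair was -1.61, and all 4 levels lay near the top of the scale.

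Among erythroid transcription factors and their partners all 7 measured genes were higher on Δ122p53 than on the 3 other arrays (29.9% of all genes were), with medians of 1.48 and 2.70. Hemgn, a nuclear protein of erythroid precursors, was at 10.32 on Δ122p53, against 5.33 on WT and 4.93 and 4.83 on p53-null. Tal1, a master regulator of blood formation, was at 10.95 on Δ122p53, against 8.47 on WT and 6.82 and 7.47 on p53-null, and rose over p53-null (3.80 ± 0.42, adjusted p = 0.0131). Klf1, the activator of adult beta globin, was at 9.17 on Δ122p53, against 7.88 on WT and 5.50 and 6.71 on p53-null. Klf1 rose over p53-null (adjusted p = 0.0409) and did not pass against WT (1.29 ± 0.63, adjusted p = 0.256). Gata1 and the erythropoietin receptor gene Epor were detected on Δ122p53 alone, at 6.08 and 6.55, and passed neither test. Among genes of late maturation Trim10 was at 9.88 on Δ122p53, against 4.63 on WT and 4.67 and 4.66 on p53-null. Car2, carbonic anhydrase 2, was at 12.15 on Δ122p53, against 7.49 on WT and 6.66 and 6.85 on p53-null. Both rose, as did Tspo2 and Xpo7, whereas Riok3, Car1 and Blvrb were 0.56 to 1.36 higher with no call.

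Sequences before the transcription start are shown for higher genes of the erythroid and interferon groups and for a lower gene, to set the letters beside the groups. They are 250 bases from RefSeq (GRCm38.p6), 5′ to 3′ on the gene's strand and ending at the base before the start. Capitals mark matches, on either strand, to any of 3 motifs: the interferon-stimulated response element core (GAAA, any 2 bases, GAAA), the GATA factor motif AGATAA, and TTTGAA, a motif of cell cycle gene promoters. Matches that overlap were each counted. Alas2 lies at chrX:150547167-150547416 (plus strand), Kel at chr6:41704326-41704575 (minus strand), Trim10 at chr17:36869324-36869573 (plus strand), Rsad2 at chr12:26456453-26456702 (minus strand), Irgm1 at chr11:48871421-48871670 (minus strand) and Tgfbi at chr13:56609336-56609585 (plus strand).
Alas2: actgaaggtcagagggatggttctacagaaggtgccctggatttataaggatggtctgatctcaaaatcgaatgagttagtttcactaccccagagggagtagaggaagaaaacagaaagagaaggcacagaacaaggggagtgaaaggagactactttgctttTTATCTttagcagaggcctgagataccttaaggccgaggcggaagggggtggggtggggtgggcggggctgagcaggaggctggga
Kel: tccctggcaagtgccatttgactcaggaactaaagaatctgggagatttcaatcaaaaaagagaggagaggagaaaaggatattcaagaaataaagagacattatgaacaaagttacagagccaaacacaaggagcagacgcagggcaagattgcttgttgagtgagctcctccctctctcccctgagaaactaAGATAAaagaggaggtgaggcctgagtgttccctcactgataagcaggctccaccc
Trim10: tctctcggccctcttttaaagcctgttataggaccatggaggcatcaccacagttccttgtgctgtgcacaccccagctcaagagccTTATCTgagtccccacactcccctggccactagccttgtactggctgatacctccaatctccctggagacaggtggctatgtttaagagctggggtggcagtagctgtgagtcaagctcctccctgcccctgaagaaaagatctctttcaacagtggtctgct
Rsad2: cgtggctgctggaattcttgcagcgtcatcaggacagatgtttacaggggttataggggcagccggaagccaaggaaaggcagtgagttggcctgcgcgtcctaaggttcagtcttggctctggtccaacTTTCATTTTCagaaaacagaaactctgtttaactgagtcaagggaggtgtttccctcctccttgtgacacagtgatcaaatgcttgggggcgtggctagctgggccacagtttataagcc
Irgm1: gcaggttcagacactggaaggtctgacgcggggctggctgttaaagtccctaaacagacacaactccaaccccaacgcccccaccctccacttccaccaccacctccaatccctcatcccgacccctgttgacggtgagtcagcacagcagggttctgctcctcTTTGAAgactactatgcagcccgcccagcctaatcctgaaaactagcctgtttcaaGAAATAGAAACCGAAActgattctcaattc
Tgfbi: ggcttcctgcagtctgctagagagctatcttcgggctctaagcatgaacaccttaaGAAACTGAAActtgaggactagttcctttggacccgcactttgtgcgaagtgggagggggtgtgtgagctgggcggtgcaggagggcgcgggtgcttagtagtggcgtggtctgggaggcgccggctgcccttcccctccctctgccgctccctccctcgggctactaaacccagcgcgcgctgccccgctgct
The capitals in Alas2, Kel and Trim10 are AGATAA matches, 86, 56 and 163 bases before the start. Of the 29 measured erythroid genes with a promoter listed, 7 held AGATAA (24.1%), against 11.4% of 27025 genes and 7.47% of the 5812 measured genes with a promoter. Rsad2 holds the interferon element 120 bases before its start, and Irgm1 holds a pair of overlapping matches at 30 and 24, besides a TTTGAA at 86. Of 20 interferon genes with a promoter 9 held the interferon element (45.0%), against 3.46% of all genes and 3.34% of the measured ones. Tgfbi, which fell, holds the interferon element 194 bases before its start. A match is a description of the letters only.

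Interferon-stimulated genes were also higher in Δ122p53 control cells. Of 40 listed genes 26 were measured. Of these, 21 were at least 2-fold higher than in WT and 19 than in p53-null (13.2% and 8.08% of all genes). Against WT 8 rose and against p53-null 4, beside 1.46% and 2.33% of all genes, and in the pooled comparison 6 rose. The median difference was 2.06 from WT and 1.54 from p53-null, and 1.74 and 1.54 with genes at their bound. Summed signal was 44523 on Δ122p53, against 13833 on WT and 14331 and 15126 on p53-null.

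Rsad2, the antiviral enzyme viperin, was at 13.80 on Δ122p53, against 9.11 on WT and 9.84 and 9.31 on p53-null. It rose by 4.70 ± 0.46 over WT and 4.23 ± 0.40 over p53-null (± SE, adjusted p = 0.0160 and 0.00869). Oasl1, of the oligoadenylate synthetase family, was at 10.19 on Δ122p53, against 6.87 on WT and 7.77 and 6.95 on p53-null. Its further probe was higher by 2.19 than in WT and by 1.85 than in p53-null, with no call in either comparison. Igtp, an interferon-induced GTPase, was at 12.21 on Δ122p53, against 9.37 on WT and 10.37 and 9.88 on p53-null. Irgm1, of the same GTPase family, was at 10.73 on Δ122p53, against 8.09 on WT and 8.46 and 8.50 on p53-null. These 4 genes rose in both comparisons, with adjusted p from 0.0160 to 0.0375 against WT and from 0.00869 to 0.0452 against p53-null. Stat2, which carries the type I interferon signal to the nucleus, was at 9.11 on Δ122p53, against 5.55 on WT (not detected) and 7.26 and 6.37 on p53-null. Stat2, Ifit2, Ifit3 and Oas2 rose against WT and did not pass against p53-null, with adjusted p from 0.0581 to 0.0999 there. The list median of p53-null minus WT was 0.47. Ifitm3, Bst2 and Ifi27l2a were among the brighter genes of the list, at 11.46, 11.12 and 11.62 on Δ122p53, and differed by -0.45 to 0.49 with no call. Cxcl9, a chemokine induced by interferon gamma, was at 6.99 on Δ122p53, against 7.55 on WT and 7.57 and 7.17 on p53-null. MHC class I and antigen processing genes had medians of 0.51 and 0.19 over 11 genes, with no call.

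**Figure D3:**
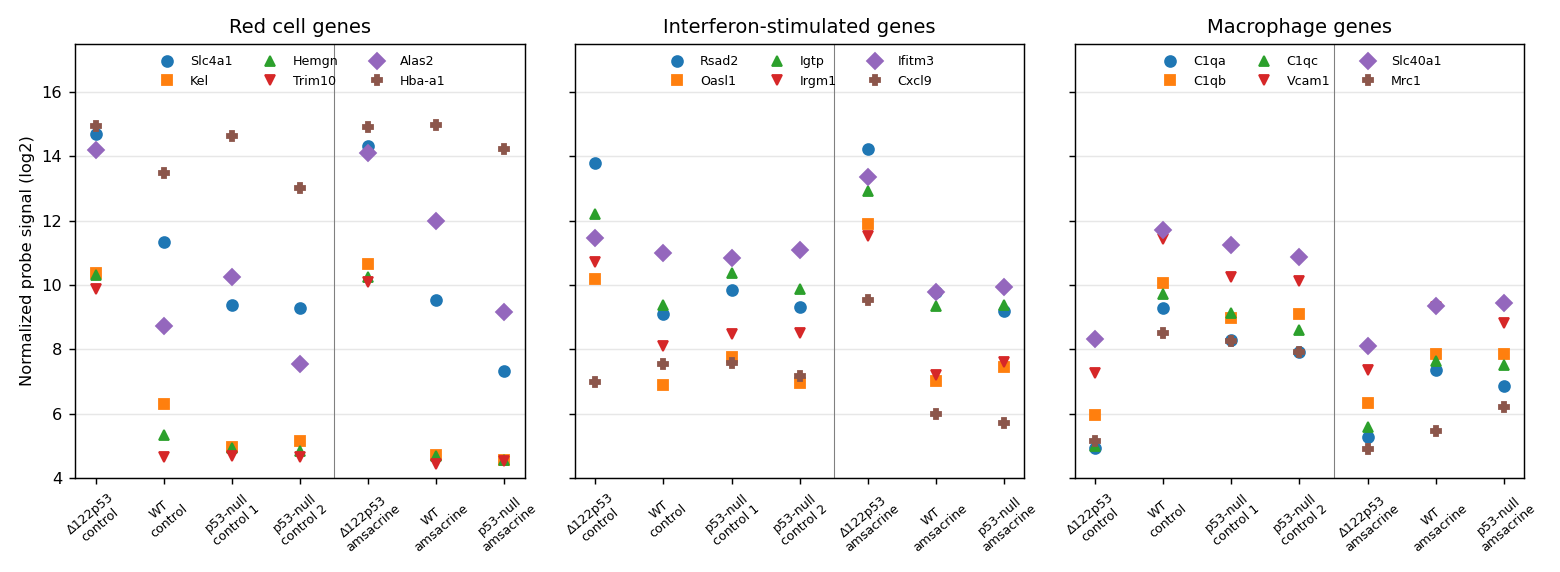
Normalized log2 signal (vertical axis) of 6 red cell, 6 interferon-stimulated and 6 macrophage genes on each control array and, right of the line, each amsacrine array. Rsad2 stands at 13.80 on the Δ122p53 control, against 9.11 on the WT control, and C1qc at 4.98, against 9.72.

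Mitotic genes were higher, and DNA replication genes were mixed. All 17 measured mitotic genes were higher on Δ122p53 than on each of the 3 other arrays, beside 29.9% of all genes. Their median was 1.52 from WT and 1.72 from p53-null, and 1 rose against WT, 7 against p53-null and 5 in the pooled comparison, beside 1.46%, 2.33% and 2.22% of all genes. Cdk1, the kinase that drives entry into mitosis, was at 9.56 on Δ122p53, against 6.25 on WT and 6.39 and 6.83 on p53-null. It rose in both comparisons (3.31 ± 0.44, adjusted p = 0.0301, and 2.96 ± 0.38, adjusted p = 0.0180). Nusap1, a spindle microtubule protein, was at 11.42 on Δ122p53, against 8.88 on WT and 8.05 and 8.73 on p53-null, and rose over p53-null (adjusted p = 0.0226). Birc5, the survivin subunit of the chromosomal passenger complex, was at 10.18 on Δ122p53, against 8.67 on WT and 7.77 and 8.02 on p53-null, and rose over p53-null (adjusted p = 0.0304). Of 25 replication genes, 15 were higher than in WT and 14 than in p53-null, where 3116 and 3337 of all 7071 genes were. The replication medians were 0.33 and 0.28. Rrm2, the small subunit of ribonucleotide reductase, was the one that rose by the probe used, over p53-null (2.04 ± 0.35, adjusted p = 0.0383). A further probe of Tk1, thymidine kinase 1, rose in both comparisons (2.49 and 2.00, adjusted p = 0.0439 and 0.0449). Of 15 mitotic genes with a promoter 5 held TTTGAA (33.3%), against 18.3% of all genes and 12.9% of the measured ones.

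Glycolytic genes were higher throughout. All 9 measured were above each of the 3 other arrays (29.9% of all genes were), with medians of 1.97 and 1.95, and 2 rose against WT and 5 against p53-null, beside 1.46% and 2.33% of all genes. Hk2, hexokinase 2, was at 10.91 on Δ122p53, against 8.19 on WT and 8.88 and 8.90 on p53-null. Pfkp, the platelet-type phosphofructokinase, was at 11.42 on Δ122p53, against 7.54 on WT and 9.16 and 8.33 on p53-null. Both rose in both comparisons. Pfkl rose over p53-null (adjusted p = 0.0224) and was at the threshold against WT (adjusted p = 0.0502).

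Genes of the amino acid and unfolded protein stress responses had medians of 1.51 and 1.08 over 15 genes, of which 5 rose against WT, 6 against p53-null and 7 in the pooled comparison (1.46%, 2.33% and 2.22% of all genes). Trib3, a feedback inhibitor of the stress factor ATF4, was at 10.19 on Δ122p53, against 5.96 on WT and 5.32 and 5.43 on p53-null. Asns, asparagine synthetase, was at 10.11 on Δ122p53, against 6.13 on WT and 5.30 and 5.37 on p53-null. Both rose in both comparisons (adjusted p = 0.0160 and 0.00500 for each), and a further Asns probe was higher by 1.29 and 1.57 with no call. Slc7a5, a leucine transporter, was at 12.19 on Δ122p53, against 9.66 on WT and 8.91 and 9.19 on p53-null, and rose in both, as did Mthfd2 and Chac1. Atf4 itself was at 10.19 on Δ122p53, against 9.81 on WT and 8.64 and 9.81 on p53-null, and passed neither test. A further Atf4 probe was higher by 1.52 than in WT and by 1.13 than in p53-null, with no call. Atf3 and Hspa5 were not detected on Δ122p53 and passed neither test.

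**Figure D4:**
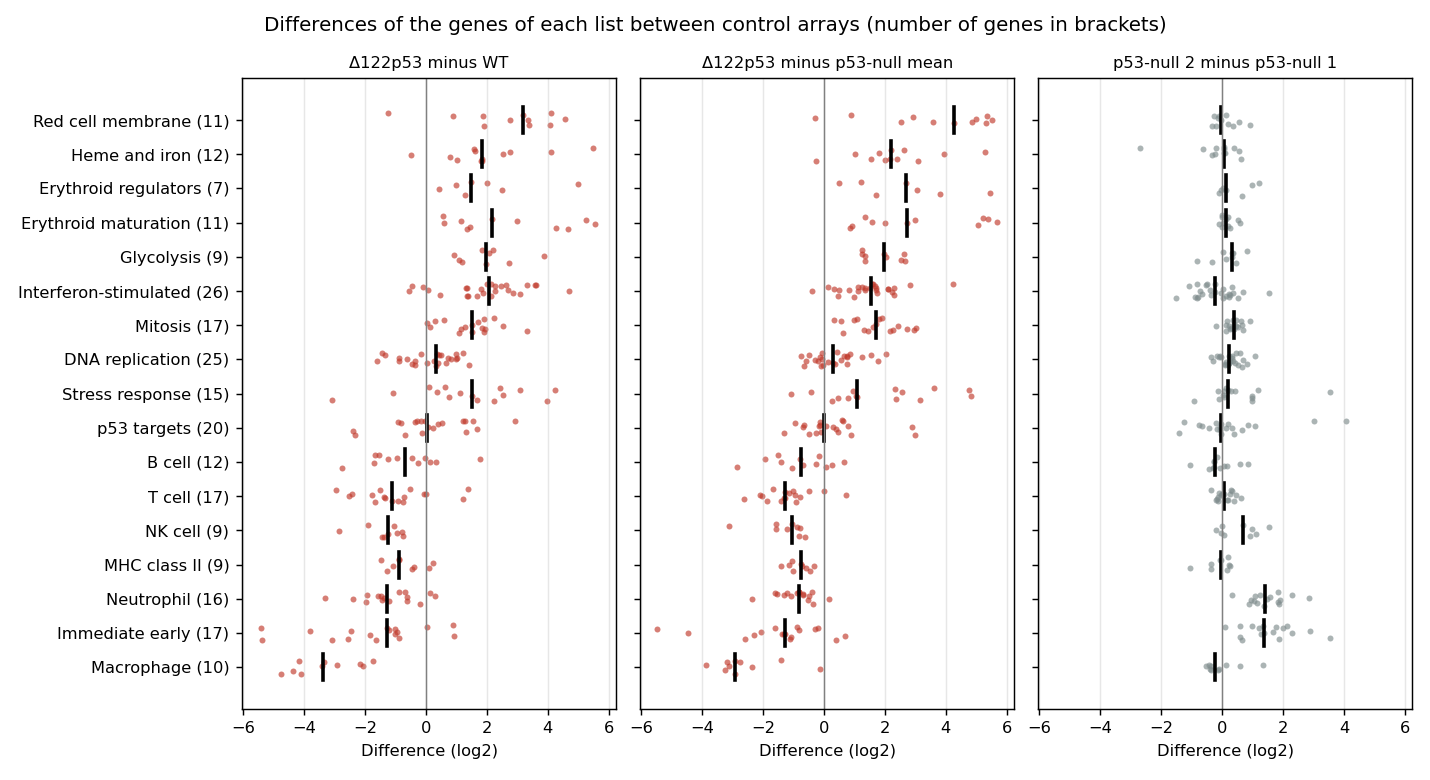
Difference in log2 signal (horizontal axis) of each measured gene (points) and the median (black bar) for 17 gene lists: Δ122p53 minus WT, Δ122p53 minus the p53-null mean, and p53-null 2 minus p53-null 1. Red cell, glycolysis, interferon and mitosis medians lie right of 0 and the macrophage median left of it in both Δ122p53 panels, while neutrophil and immediate early genes also differ within the p53-null pair.

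Macrophage genes had the lowest medians of the lists examined. All 10 measured were lower than in WT and in p53-null, with medians of -3.38 and -2.93, and 7 fell against WT, 8 against p53-null and 8 in the pooled comparison, beside 1.56%, 1.65% and 1.91% of all genes. Summed signal was 2084 on Δ122p53, against 15714 on WT and 12918 and 11284 on p53-null. Of the 10, 5 were detected on Δ122p53, against all 10 on each other array. Genes undetected on Δ122p53 entered the list through the other arrays, so the filter sets part of this contrast. C1qa, C1qb and C1qc encode the chains of complement C1q, which splenic macrophages make. C1qa was at 4.93 on Δ122p53, against 9.30 on WT and 8.30 and 7.90 on p53-null. C1qb was at 5.94 on Δ122p53, against 10.05 on WT and 8.98 and 9.11 on p53-null. None of the C1q genes was detected on Δ122p53, and they were at least 10.0-fold, 16.9-fold and 13.5-fold lower than in WT (adjusted p = 0.0160 for each) and at least 4.38-fold, 8.42-fold and 7.36-fold lower than in p53-null.

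Vcam1, an adhesion molecule of red pulp macrophages, was at 7.26 on Δ122p53, against 11.43 on WT and 10.26 and 10.12 on p53-null. Slc40a1, the iron exporter ferroportin, was at 8.31 on Δ122p53, against 11.72 on WT and 11.24 and 10.88 on p53-null. Adgre1, the F4/80 antigen, was at 6.92 on Δ122p53, against 9.85 on WT and 8.98 and 9.56 on p53-null. All fell in both comparisons, as did Mrc1. Lyz2, myeloid lysozyme, was at 9.20 on Δ122p53, against 11.26 on WT and 12.66 and 12.22 on p53-null, and fell against p53-null (adjusted p = 0.0150). Hmox1, which opens the heme ring, was at 9.46 on Δ122p53, against 11.62 on WT and 8.91 and 10.25 on p53-null, and lay within the p53-null pair.

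Most lymphocyte genes were lower by smaller amounts. Of 17 T cell genes, 2 were at least 2-fold higher than in WT and 1 was higher than in p53-null. Of 12 B cell genes, 3 were higher in each comparison, 1 of them at least 2-fold over WT. Against WT, further probes of Cd79b, Blk, Blnk, Fcer2a, Cd247, Cd28, Lef1 and Trat1 had the opposite sign to the probe used. The 17 T cell genes had medians of -1.10 and -1.30, with 2 falling against WT and 4 against p53-null, beside 1.56% and 1.65% of all genes. Thy1, a surface glycoprotein of T cells, was at 9.84 on Δ122p53, against 12.37 on WT and 12.45 and 12.51 on p53-null. Lat, the adaptor of the T cell receptor, was at 7.41 on Δ122p53, against 10.35 on WT and 9.44 and 9.62 on p53-null. Both fell in both comparisons. The 9 natural killer genes all lay below the 3 other arrays (38.1% of all genes did), and Nkg7, a cytotoxic granule protein, was at 8.80 on Δ122p53, against 11.65 on WT and 12.03 and 11.81 on p53-null. The 12 B cell genes had medians of -0.70 and -0.74, and Cd37, a B cell tetraspanin, was the one that fell (-2.74 ± 0.41 and -2.84 ± 0.35, adjusted p = 0.0338 and 0.0161). MHC class II genes had medians of -0.89 and -0.74 over 9 genes with no call by the probe used. A further probe of H2-DMb1, a chain of the peptide-loading H2-DM molecule, fell in both comparisons (-2.62 and -1.97, adjusted p = 0.0384 and 0.0442), and one of Cd8b1, the CD8 beta chain of T cells, fell against p53-null (-2.10, adjusted p = 0.0434). Summed signal of the T cell list was 17348 on Δ122p53, against 37881 on WT and 42096 and 40665 on p53-null, and of the B cell list 39784 on Δ122p53, against 50765, 53420 and 44461.

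Immediate early genes were lower as well, but they also differed within the p53-null pair. Their medians were -1.28 and -1.29 over 17 genes, and the median of p53-null 2 minus p53-null 1 was 1.37. Fos was at 6.21 on Δ122p53, against 11.64 on WT and 10.86 and 12.53 on p53-null. Fosb was at 4.78 on Δ122p53, against 10.17 on WT and 8.19 and 10.31 on p53-null. These partners of Jun in the AP-1 factor fell in both comparisons, Fos by 5.43 ± 0.78 against WT and 5.48 ± 0.68 against p53-null (± SE, adjusted p = 0.0327 and 0.0158). Jun, Junb, Egr1, Dusp1 and Klf2 differed by -2.54 to -0.90 and passed neither test. Neutrophil genes, with medians of -1.29 and -0.82 over 16 genes and no call, differed by a median of 1.41 within the p53-null pair. Megakaryocyte and platelet genes had medians of -1.33 and -0.93 over 8 genes, with no call and a median of -0.86 within that pair. Of these 8 genes 2 were detected on Δ122p53, and with genes at their bound the medians were -0.45 and -0.05, against -1.05 and -0.54 for neutrophil genes and -3.13 and -2.55 for macrophage genes.

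Canonical p53 target genes showed no common direction in control cells. Over 20 measured genes the medians were 0.02 and -0.02. Cdkn1a, the p21 inhibitor of cyclin-dependent kinases, was at 9.45 on Δ122p53, against 8.16 on WT and 4.97 and 7.98 on p53-null. Control 2 minus control 1 of the p53-null pair was 3.01 in Cdkn1a, and neither difference passed (1.29 ± 1.28, adjusted p = 0.560, and 2.98 ± 1.11, adjusted p = 0.223). Mdm2, the ubiquitin ligase for p53, was at 10.27 on Δ122p53, against 10.30 on WT and 10.60 and 10.44 on p53-null, with differences of -0.03 ± 0.41 and -0.25 ± 0.35. Gadd45a, a growth arrest gene that other stresses also induce, was at 12.53 on Δ122p53, against 9.59 on WT and 9.21 and 10.05 on p53-null. Gadd45a rose in both comparisons (adjusted p = 0.0473 and 0.0304). Dcxr, a carbonyl reductase, was at 5.49 on Δ122p53 (not detected), against 7.81 on WT and 6.81 and 6.78 on p53-null, and was at least 3.57-fold lower than in WT (adjusted p = 0.0446).

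Of the Bcl-2 family 11 genes were measured, with medians of -0.18 from WT and -0.10 from p53-null. Of these, 7 were lower than in WT and 6 lower than in p53-null. In each comparison 3 were at least 2-fold higher, Bcl2l1, Bcl2l11 and Bnip3l, beside 13.2% and 8.08% of all genes. A further 2 were at least 2-fold lower in each, beside 1166 and 723 of all 7071 genes. Bnip3l was higher by 1.44 than in WT and by 1.99 than in p53-null. Bcl2l1, whose main product Bcl-xL protects erythroblasts among other cells, was at 9.77 on Δ122p53, against 6.18 on WT and 6.35 and 6.16 on p53-null (3.59 ± 0.41, adjusted p = 0.0201, and 3.52 ± 0.36, adjusted p = 0.0106). Bcl2l11, the death-promoting Bim, was at 8.76 on Δ122p53, against 4.94 on WT (not detected) and 6.68 and 5.89 on p53-null (adjusted p = 0.0311 and 0.0414). Its other probe was higher by 0.77 and 1.35 with no call. Over 18 cytokines and chemokines the medians were -0.21 and -0.33, with 7 higher and 11 lower than in WT and 8 higher and 10 lower than in p53-null. Il18 was at 4.63 on Δ122p53 (not detected), against 7.31 on WT and 6.68 and 7.06 on p53-null, at least 2.52-fold and 1.86-fold lower. Ribosome biogenesis genes had medians of -0.14 and 0.10 over 18 genes with no call.

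Markers that bear on sample make-up were read beside these groups. Eif2s3y, a Y-linked gene, was at 8.90 on Δ122p53, against 8.97 on WT and 8.16 and 9.47 on p53-null. Amy2a5, an amylase gene of the pancreas, was at 5.34 on Δ122p53 (not detected), against 10.32 on WT and 9.85 and 7.92 on p53-null. It was at least 20.3-fold lower than in WT (adjusted p = 0.0453), and its difference from p53-null did not pass (adjusted p = 0.0673). The part of cell make-up and tissue carry-over in the group differences above was not tested.

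The amsacrine arrays give the same genotype differences on other arrays, though whether the same pools of mice supplied both is not stated. Of the 168 probes higher in Δ122p53 than in WT control cells, 163 had the same sign on the amsacrine arrays and 152 were at least 2-fold higher there, beside 12.6% of all members. Of the 127 lower ones, 118 had the same sign and 82 were at least 2-fold lower, beside 11.8%. Against p53-null the counts were 217 and 195 of 229 higher probes (8.27% of members at least 2-fold higher) and 130 and 82 of 142 lower ones (8.17%). The share of all members with the same sign on both sets of arrays was not counted, so the same-sign counts have no background. The Δ122p53 control and Δ122p53 amsacrine arrays correlated at 0.964 over the members. In the test that follows each amsacrine group held a single array, and only the p53-null control pair left a residual degree of freedom. A lack of calls there does not show that the differences were equal. A test of the change in genotype difference between control and amsacrine arrays passed for no probe by limma, with 944 and 710 probes at an unadjusted p under 0.05 and smallest adjusted p of 0.386 and 0.502.

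By group, the erythroid median was 2.56 from WT and 3.27 from p53-null on the amsacrine arrays, and the interferon median 3.78 and 3.53, with all 26 genes higher. Ifitm3 was at 13.36 on the Δ122p53 amsacrine array, against 9.77 on WT and 9.94 on p53-null amsacrine arrays. Cxcl9 was at 9.53 on the Δ122p53 amsacrine array, against 5.98 on WT and 5.72 on p53-null. The mitotic medians were 3.55 and 3.21, and the macrophage medians -1.37 and -1.48. Fos was at 7.36 on the Δ122p53 amsacrine array, against 8.57 on WT and 8.58 on p53-null, and Fosb was at 5.31, against 4.90 and 5.52. The p53 target median was -1.54 from WT and -0.36 from p53-null, and Mdm2 was at 10.32 on the Δ122p53 amsacrine array, against 12.52 on WT and 10.88 on p53-null.

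**Figure D5:**
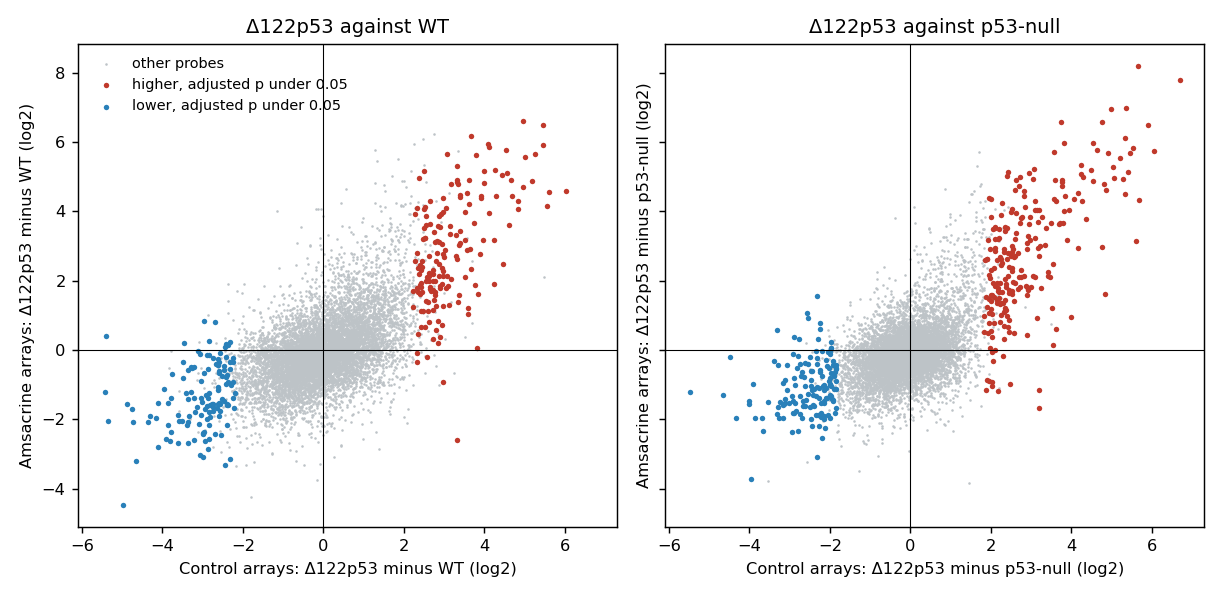
Difference in log2 signal between Δ122p53 and WT (left) or p53-null (right) on the control arrays (horizontal axis) and on the amsacrine arrays (vertical axis), 1 point per probe, with probes past an adjusted p of 0.05 on the control arrays in red (higher) and blue (lower). Most coloured points keep their sign, and the share that do so among all members was not counted.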

How the data were processed

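For each probe and array the authors deposited a signal intensity, non-normalized per the file headers, and a detection p-value. Their second deposited table, of normalized values, was read as log2. Per the submitters' processing notes lumi was used; versions, settings, scanner software and how detection was computed are not stated. Sorted columns of the normalized table differed by at most 0.000516, with a median of 7.30, and ranks matched the intensities on each array, so it was quantile scaled. Whether its scale is a plain log2 or variance-stabilised stays unknown, so that table entered as an alternative only.

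Background correction from the detection p-values, an offset of 16, quantile normalization of all 8 arrays and log2 transformation were done by neqc of limma 3.58.1 under R 4.3.3. Probes with a detection p under 0.01 on at least 1 of the 4 control arrays were kept. lmFit and eBayes fitted a mean per genotype on those 4 arrays (1 residual degree of freedom, 5.14 prior degrees of freedom, prior SD 0.313), with Benjamini-Hochberg adjustment over all probes and a threshold of 0.05. The pooled fit, Δ122p53 against the 3 others, had 2 residual degrees of freedom, which also hold the p53-null to WT difference. The number of arrays limits the precision. A simulation shifted 50 of 9653 probes at each size, with noise drawn from the fitted prior. Far fewer probes were shifted than differed at least 2-fold in the data, so the recovery rates need not hold for the data. On simulated data of this design, log2 shifts of 4, 3 and 2 were recovered in 86%, 34% and 0% of changed probes against WT and in 94%, 70% and 18% against p53-null.

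Of all probes 20984 had 1 gene symbol in the platform annotation, 1 had several and 3628 none. Per gene the probe with the highest mean over the 4 arrays was used. Among the 126 genes named by the rule below, 27 other detected probes of 21 genes had the same sign in both comparisons. Among other list genes, a further probe had the opposite sign in 17 against WT and in 11 against p53-null. Tmem14c was among these in both comparisons and Cd79b against WT. Genes undetected throughout one side were given as bounds. Named genes were the 15 furthest above and below all 3 other controls, the 6 largest calls per comparison and direction, the 4 largest of each list, and Cdkn1a and Mdm2; other list genes were named after their values were seen. The members and the lists were chosen with earlier results of these data known, so the lists' directions are not independent evidence. Promoters matched by symbol for 105 of 126 named genes. The comparisons with WT and with p53-null share the Δ122p53 array. Alternatives changed the background correction, scaling, detection filter, variance model, arrays fitted and probes per gene. The list values on the amsacrine arrays were added after seeing the data.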

Additional observations from a re-analysis of the deposited data

Results flagged for a closer look

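In 4 gene lists the median difference of Δ122p53 had opposite signs on the control and amsacrine arrays, both at least 0.10 in size. Against WT, smaller medians also changed sign between control and amsacrine arrays, for p53 targets (0.02 and -1.54) and dendritic cell genes (0.09 and -0.23). So did those of cytokines (-0.21 and 0.095) and the Bcl-2 family (-0.18 and 0.074). The eosinophil list, with 1 measured gene, was not counted (-2.16 and 1.71 against WT). The change between the 2 sets of arrays was not tested for these medians. For mast cell and basophil genes (6 measured) Δ122p53 minus WT was -0.51 on control arrays and 0.34 on amsacrine arrays, and Δ122p53 minus p53-null was -0.65 and 0.25. For plasma cell genes (4 measured) Δ122p53 minus p53-null was 0.10 on control arrays and -0.53 on amsacrine arrays. For ribosome biogenesis genes (18 measured) it was 0.10 and -0.16, and for the Bcl-2 family (11 measured) -0.10 and 0.14. Without p53-null control 1 the control-array medians against p53-null were -0.08 for plasma cell genes and -0.07 for ribosome biogenesis genes, and without control 2 the plasma cell median was -0.0094. The positive plasma cell median was seen with both p53-null arrays averaged and with neither alone.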

How the results depend on the processing

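Probes past the threshold against WT, 295 as reported, numbered 0 with cyclic loess, with the authors' normalized values and without the detection filter by limma, with 2292, 2108 and 3821 probes at an unadjusted p under 0.05. They numbered 157 with a detection p under 0.05, 139 with an offset of 50, 156 without background correction, 141 with normexp, 563 over probes detected on all 4 arrays, which tests fewer probes, and 1442 in an additive fit of 7 arrays, which has more residual degrees of freedom. Against p53-null, 371 as reported, they numbered 97 with cyclic loess, 0 with the authors' values and without the filter (1649 and 3062 unadjusted), and 774 in the additive fit. Against the 3 controls pooled, 382 as reported, they numbered 202 over probes detected on all 4 arrays and 94 without the filter. Leaving out p53-null control 1 gave 2123 such probes and leaving out control 2 gave 240, with 1 residual degree of freedom from WT and the remaining p53-null array. Counts of at least 2-fold differences from WT, 2972 as reported, were 1030 with the authors' values, 1813 over probes detected on all 4 arrays, 1882 without background correction and 1791 with normexp. Those from p53-null, 1768 as reported, were 615, 1034, 1053 and 1002 by the same settings, 1160 with an offset of 50, and 2269 and 1679 without p53-null control 1 and 2. Under cyclic loess Mdm2 minus WT was 0.0080 and Xbp1 minus p53-null 0.0036, both of opposite sign to the near-zero values reported. Where no reason is given the cause was not tested. Of 127 calls on named genes, 87 were lost with cyclic loess, 127 with the authors' values, 17 with an offset of 50, 17 with normexp, 13 without background correction and 2 with quantile scaling of the 4 control arrays alone. Of 364 list medians recomputed under alternatives, 284 moved by less than the spread of the p53-null pair. The limma calls against WT and p53-null have no residual degree of freedom without a p53-null control, so they give no value there. No paired analysis was possible because the control groups share a single replicate number and 1 array per group carries it. Signal near background limits genes detected on one side only, which are given as bounds.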

Other observations

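Dendritic cell genes had median differences of 0.09 from WT and -0.03 from p53-null over 5 measured genes, with no call. Tnfrsf17, the BCMA receptor of plasma cells, was at 4.76 on the Δ122p53 control (not detected), against 7.95 on WT and 6.56 and 7.38 on p53-null, and was at least 3.94-fold lower than in WT (adjusted p = 0.0396, limma). Prg2, an eosinophil granule protein, was at 8.50 on Δ122p53, against 10.66 on WT and 7.33 and 11.06 on p53-null, and so lay between the p53-null controls. Slc6a9, a glycine transporter, was at 10.65 on Δ122p53, against 7.26 on WT and 4.76 and 5.33 on p53-null, and rose in both comparisons (adjusted p = 0.0319 and 0.00500). Progenitor genes were measured by Kit, at 8.32 on Δ122p53, against 7.41 on WT and 7.89 and 7.98 on p53-null, and Gata2, at 6.02 on Δ122p53, against 7.46 on WT and 6.37 and 7.84 on p53-null, with no call.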
